A study of Mus musculus with 40 samples.

Results

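The genes of fatty acid and cholesterol synthesis are described here across the 4 major cell populations of the mouse mammary gland. A total of 38 genes were taken by symbol from the 23180 genes present in both the adult and the pubertal count table, and all 38 were found. By role, 14 make, lengthen or desaturate fatty acids, 8 activate fatty acids and build them into triglycerides, 5 regulate these pathways, and 11 belong to the sterol branch. Polyadenylated RNA was measured in 40 bulk libraries from wild-type FVB/N females. The populations were luminal cells, basal cells, adipocytes and non-adipose stromal cells, which are called fibroblasts. Each population had 2 libraries from puberty and 2 from every stage of the adult estrous cycle, whose 4 stages are proestrus, estrus, metestrus and diestrus. The adult mice were 14 to 16 weeks old and 2 or 3 of them were pooled for a library. A pubertal library pooled 4 mice taken on the same day, at an age of 34 to 36 days. By the study's methods the first pubertal replicate was of the first of these days in every population. The second was of the next day, or of the last day in adipocytes, so replicate and day cannot be told apart in puberty. No mouse was treated or carried a transgene. The replicates of an adult stage are separate pools, formed as early and late in the stage where cytology and histology differed clearly, and the 4 populations of a pool come from the same mice. Adipocytes were taken as the floating layer after digestion of the glands, with no sort. The luminal and basal cells were sorted on EpCAM and CD49f, and the fibroblasts were sorted by the absence of both proteins and of blood and endothelial markers. Adult and pubertal libraries were sequenced in separate runs, so age, run and pool size cannot be told apart.

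Fatty acid synthesis starts from citrate, which Slc25a1 exports from the mitochondrion and Acly splits into acetyl-CoA. Acaca and Acacb make malonyl-CoA, and Fasn assembles palmitate from it with NADPH that Me1 helps to supply. The Elovl enzymes lengthen the chains, Scd1 and Scd2 place the first double bond, and Fads1 and Fads2 make highly unsaturated chains. The Acsl enzymes activate fatty acids, and Gpam, Agpat2, Lpin1, Dgat1 and Dgat2 carry the steps towards triglyceride. Cholesterol synthesis runs from Hmgcs1 through the mevalonate pathway to squalene, which Sqle oxidises and Lss cyclises, and on to Dhcr7 and Sc5d at its end. Srebf2 and Srebf1 encode the membrane-bound transcription factors that drive sterol and fatty acid genes, Insig1 retains them in the endoplasmic reticulum when sterols are plentiful, Mlxipl encodes the carbohydrate-responsive factor ChREBP, and Thrsp encodes the lipogenic protein Spot 14. White adipocytes are known for making and storing triglyceride, and the luminal cells of the gland make milk fat during lactation.

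The libraries held between 8991222 and 22760563 counts assigned to genes, with a median of 16983304. The label of each population was checked against the summed CPM (counts scaled to library size) of fixed markers. In adult libraries the luminal list summed to 22233 to 27534 CPM in luminal cells and to at most 3125 CPM in the other populations. The basal list summed to 14665 to 23115 CPM in basal cells, but 1 adipocyte library of diestrus also reached 4419 CPM. The adipocyte list summed to 6204 to 24625 CPM in adipocytes and to at most 294 CPM elsewhere. The fibroblast list summed to 20254 to 54107 CPM in fibroblasts and to 3603 to 7196 CPM in adipocytes.

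Adult adipocytes expressed the lipid synthesis genes at by far the highest level. The 38 genes took 1.98% to 6.03% of all counts in the 8 adult adipocyte libraries (median 3.93%), against 0.272% to 0.375% in luminal cells, 0.177% to 0.206% in basal cells and 0.150% to 0.211% in fibroblasts. Scd1, the main stearoyl-CoA desaturase of adipose tissue, made up 44.5% of these counts in adipocytes and Fasn 26.1%. By mean RPKM, the normalised read count scaled by exon length and library size, Scd1, Fasn and Thrsp ranked 12, 20 and 34 among 22926 genes in adult adipocytes. Adult adipocytes were compared with the mean of the other 3 populations by edgeR's quasi-likelihood test with Benjamini-Hochberg adjustment, and a gene with an adjusted p under 0.05 is called changed. All 38 genes were called, 30 higher and 8 lower, where 80.5% of the genes tested were called in that comparison, 43.9% higher and 36.6% lower. The median log2 fold change was 2.26 for the 38 genes and 0.10 for all genes. In 19 of the 38 genes every adipocyte library lay above every other adult library, as in 9.68% of all genes, and no member lay below throughout. In bulk libraries, fewer cells of a type and less RNA per cell cannot be told apart.

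**Figure D1:**
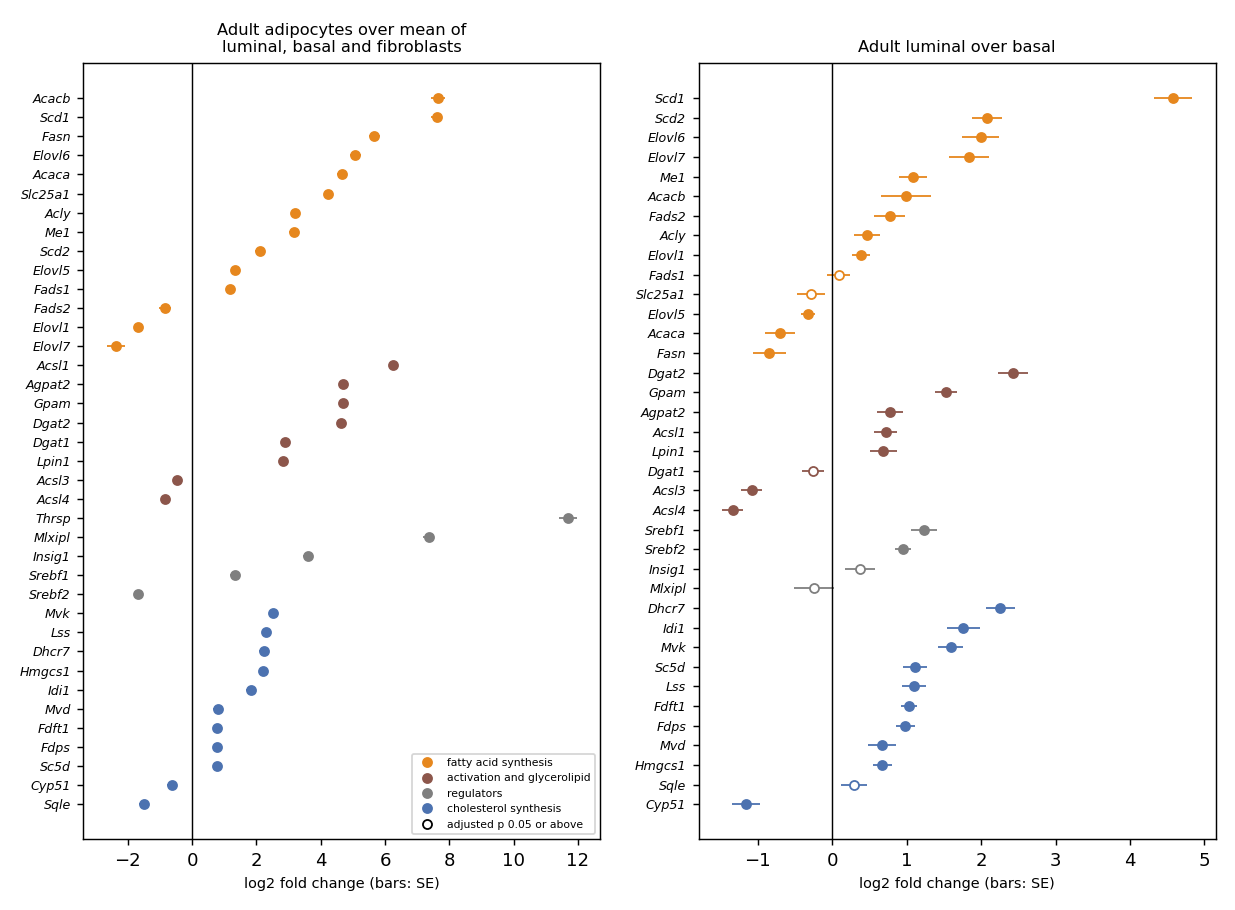
Each point is the log2 fold change of 1 gene on the horizontal axis, with its SE as a bar, for adult adipocytes over the mean of the other 3 populations (left) and adult luminal over basal cells (right), with genes grouped by branch and open points for an adjusted p of 0.05 or above. In the left panel 30 of 38 genes lie right of 0. Thrsp is left out of the right panel because of its low counts.

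The fatty acid branch had a median log2 fold change of 3.18 in adult adipocytes over the other populations, with 11 of its 14 genes higher and 3 lower. Scd1 reached 1435 to 7176 RPKM (median 3799) in adipocytes, against 49.9 to 112 RPKM (median 88.1) in luminal cells, 2.11 to 4.22 RPKM (median 3.64) in basal cells and 13.6 to 34.0 RPKM (median 24.9) in fibroblasts. None of these ranges of Scd1 overlapped that of adipocytes, and the log2 fold change was 7.60 ± 0.18 (SE, adjusted p = 1.52e-18). Acacb, the acetyl-CoA carboxylase of the mitochondrial surface, stood at 16.8 to 145 RPKM (median 57.4) in adipocytes, against 0.148 to 0.271 RPKM (median 0.228) in luminal cells, 0.0915 to 0.140 RPKM (median 0.102) in basal cells and 0.738 to 2.86 RPKM (median 1.40) in fibroblasts, a log2 fold change of 7.65 ± 0.20 (adjusted p = 8.94e-18). Fasn, the fatty acid synthase, was at 242 to 1918 RPKM (median 927) in adipocytes, 9.51 to 15.9 RPKM (median 12.1) in luminal cells, 16.0 to 26.8 RPKM (median 22.8) in basal cells and 14.2 to 28.8 RPKM (median 24.6) in fibroblasts (log2 fold change 5.66 ± 0.17, adjusted p = 3.38e-17). The lowest adipocyte library thus still had a Fasn level well above that of any other adult library. Elovl6, which extends palmitate to stearate, had 9.78 to 104 RPKM (median 74.4) in adipocytes, 2.32 to 4.33 RPKM (median 2.73) in luminal cells, 0.488 to 0.887 RPKM (median 0.772) in basal cells and 0.996 to 6.26 RPKM (median 2.55) in fibroblasts, with a log2 fold change of 5.08 ± 0.17 (adjusted p = 2.52e-16). Acaca, Slc25a1, Acly and Me1, which feed carbon and NADPH into Fasn, rose by log2 fold changes of 4.66, 4.23, 3.20 and 3.16.

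Not every desaturase and elongase was highest in adipocytes. Scd2, the paralog of Scd1, was at 17.3 to 122 RPKM (median 38.7) in adipocytes, 9.48 to 25.5 RPKM (median 12.8) in luminal cells, 1.52 to 6.93 RPKM (median 3.88) in basal cells and 16.9 to 22.4 RPKM (median 18.2) in fibroblasts. Its adipocyte range overlapped those of luminal cells and fibroblasts, with a log2 fold change of 2.1 ± 0.14 (adjusted p = 1.9e-11). Elovl5, which extends polyunsaturated chains, was at 25.7 to 54.7 RPKM (median 41.4) in adipocytes and 46.2 to 68.9 RPKM (median 53.9) in fibroblasts, the population with the highest median. Elovl7, an elongase of saturated chains, was lower in adipocytes with a log2 fold change of -2.37 ± 0.27 and was highest in luminal cells, at 0.272 to 13.3 RPKM (median 0.680) in adipocytes and 19.3 to 25.8 RPKM (median 22.3) in luminal cells. Elovl1, which makes very long saturated chains, and Fads2, the delta-6 desaturase, were the other genes of the branch that fell, by 1.68 and 0.84 on the log2 scale. Elovl1 overlaps Cdc20 on the opposite strand, and the strand setting of the counting is not given in the sources used here, so its value is uncertain. The same holds for Fdft1, Cyp51, Agpat2, Srebf1 and Acsl3, which also overlap another gene, and Scd1 and Scd2 are paralogs that could share reads.

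Among the genes of fatty acid activation and triglyceride assembly, 6 of 8 were higher in adult adipocytes and 2 were lower, with a median log2 fold change of 3.76. Acsl1, the main acyl-CoA synthetase of fat, was at 46.4 to 165 RPKM (median 129) in adipocytes, against 1.44 to 2.38 RPKM (median 2.17) in luminal cells, 1.14 to 1.5 RPKM (median 1.21) in basal cells and 1.44 to 1.89 RPKM (median 1.60) in fibroblasts (log2 fold change 6.26 ± 0.11, adjusted p = 1.51e-19). Gpam, the acyltransferase that starts glycerolipid synthesis, was at 20.9 to 46.8 RPKM (median 33.8) in adipocytes, against 1.37 to 2.45 RPKM (median 1.5) in luminal cells, 0.428 to 0.805 RPKM (median 0.604) in basal cells and 1.32 to 3.88 RPKM (median 2.36) in fibroblasts (log2 fold change 4.68 ± 0.10, adjusted p = 7.05e-19). The adipocyte ranges of Acsl1 and Gpam were separate from all others. Agpat2, Dgat2, Dgat1 and Lpin1 rose by log2 fold changes of 4.70, 4.64, 2.87 and 2.84. The other synthetases, Acsl4, which prefers arachidonate, and Acsl3, which sits on lipid droplets, fell by 0.85 and 0.48 on the log2 scale and had their highest median in basal cells, at 32.8 to 74.2 RPKM (median 50.8) for Acsl4 and 19.4 to 38.8 RPKM (median 23.3) for Acsl3.

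All regulators but Srebf2 were higher in adult adipocytes. Thrsp was at 175 to 1062 RPKM (median 588) in adipocytes, and at most 2.04 RPKM in any other adult library (log2 fold change 11.68 ± 0.28, adjusted p = 2.38e-18). Its counts lay between 6230 and 41587 in adult adipocytes and between 0 and 76 in the rest, so the size of its fold change rests on few counts outside adipocytes. Mlxipl was at 7.65 to 47.5 RPKM (median 16.4) in adipocytes, against 0.0974 to 0.246 RPKM (median 0.126) in luminal cells, 0.126 to 0.284 RPKM (median 0.147) in basal cells and 0.0107 to 0.117 RPKM (median 0.0626) in fibroblasts (log2 fold change 7.35 ± 0.16, adjusted p = 5.56e-19). Insig1 was at 49.3 to 201 RPKM (median 112) in adipocytes and 33.7 to 44.1 RPKM (median 38.3) in fibroblasts, and lower in the epithelium, at 2.06 to 8.59 RPKM (median 4.83) in luminal cells and 2.79 to 4.87 RPKM (median 3.58) in basal cells (log2 fold change 3.60 ± 0.14, adjusted p = 3.49e-15). Srebf1, the factor of fatty acid genes, was at 22 to 79.1 RPKM (median 41.3) in adipocytes, 26.1 to 37.3 RPKM (median 28.7) in luminal cells, 9.45 to 17 RPKM (median 12.6) in basal cells and 9.04 to 13.4 RPKM (median 12.7) in fibroblasts, so that adipocytes and luminal cells overlapped (log2 fold change 1.32 ± 0.13, adjusted p = 9e-09). Srebf2, the factor of sterol genes, was lower in adipocytes, at 4.27 to 15.8 RPKM (median 7.45), against 25.3 to 49.6 RPKM (median 32.1) in luminal cells, 13.1 to 23 RPKM (median 16.3) in basal cells and 22.7 to 29.3 RPKM (median 25.9) in fibroblasts (log2 fold change -1.68 ± 0.09, adjusted p = 8.41e-13).

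**Figure D2:**
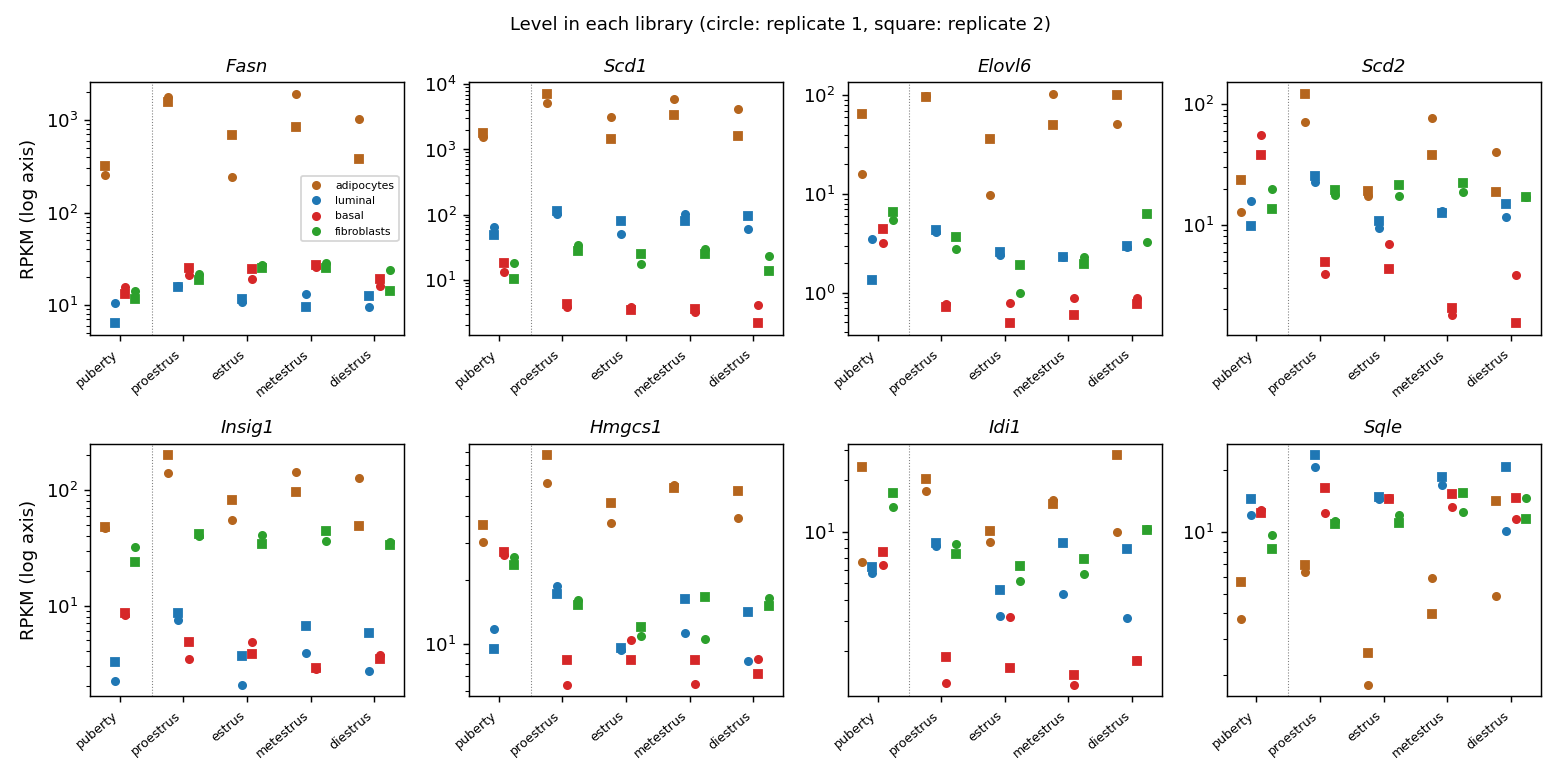
RPKM on a log axis in each of the 40 libraries for 8 genes, by stage with puberty left of the dotted line, with 1 colour for each population, circles for replicate 1 and squares for replicate 2. Fasn and Scd1 of adipocytes lie above all other populations at every stage, and Scd2, Elovl6 and Hmgcs1 of basal cells lie higher in puberty than in the adult stages.

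The sterol branch was higher in adult adipocytes by less, with a median log2 fold change of 0.81, and 9 of its 11 genes rose and 2 fell. Mvk, the mevalonate kinase, was at 4.50 to 6.35 RPKM (median 5.25) in adipocytes, 0.711 to 1.97 RPKM (median 0.994) in luminal cells, 0.109 to 0.847 RPKM (median 0.403) in basal cells and 1.08 to 2.87 RPKM (median 2.06) in fibroblasts (log2 fold change 2.53 ± 0.11, adjusted p = 8.01e-15). Hmgcs1, which makes HMG-CoA for the pathway, was at 37.0 to 77.6 RPKM (median 53.5) in adipocytes, 8.25 to 18.7 RPKM (median 12.6) in luminal cells, 6.39 to 10.4 RPKM (median 8.38) in basal cells and 10.6 to 16.6 RPKM (median 15.2) in fibroblasts (log2 fold change 2.21 ± 0.09, adjusted p = 1.11e-14). Mvk and Hmgcs1 were the only sterol genes whose adipocyte libraries all lay above the rest. Idi1, the isomerase of isopentenyl diphosphate, was at 8.73 to 28.1 RPKM (median 14.9) in adipocytes, 3.12 to 8.61 RPKM (median 6.23) in luminal cells, 1.27 to 3.18 RPKM (median 1.66) in basal cells and 5.16 to 10.4 RPKM (median 7.15) in fibroblasts (log2 fold change 1.83 ± 0.16, adjusted p = 9.89e-10). Sqle, the squalene epoxidase, ran the other way, at 1.79 to 14.2 RPKM (median 5.42) in adipocytes, 10.1 to 23.7 RPKM (median 17.8) in luminal cells, 11.5 to 16.4 RPKM (median 14.6) in basal cells and 10.9 to 15.5 RPKM (median 11.9) in fibroblasts (log2 fold change -1.5 ± 0.16, adjusted p = 2.04e-08). Cyp51, the lanosterol demethylase, also fell, by 0.63 on the log2 scale, whereas Lss and Dhcr7 rose by log2 fold changes of 2.31 and 2.22. Mvd, Fdft1, Fdps and Sc5d rose by log2 fold changes between 0.77 and 0.81.

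A further 49 genes of the same pathways were listed, of which 47 were tested, and 28 were higher and 11 lower in adult adipocytes. Those with the smallest adjusted p were Elovl3 (log2 fold change 8.68 ± 0.20) and Acss2 (5.92 ± 0.13) among fatty acid genes, Agpat3 (2.08) and Mogat1 (8.35) among glycerolipid genes, Nr1h3 (4.44) and Mbtps1 (-0.82) among regulators, and Acat2 (2.58) and Pmvk (2.30) among sterol genes.

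Within the epithelium, adult luminal cells had higher levels than basal cells for 26 of the 38 genes and lower levels for 6, where 73.6% of all genes tested were called. The median log2 fold change of luminal over basal cells was 0.77 for the members and -0.04 for all genes. All 8 luminal libraries lay above all 8 basal ones in 15 genes, as in 25.2% of all genes, and below them in 5, as in 27.8%. The fatty acid branch had 9 genes higher and 3 lower. Scd1 had the largest difference of the members named here, with the luminal and basal ranges given above and a log2 fold change of 4.58 ± 0.25 (adjusted p = 1.26e-12). Scd2 was also higher in luminal cells (2.08 ± 0.20, adjusted p = 7.19e-09), as was Elovl6 (1.99 ± 0.25, adjusted p = 3.14e-07). Fasn was lower in luminal cells, where the highest luminal library had 15.9 RPKM and the lowest basal library 16.0 RPKM (log2 fold change -0.85 ± 0.22, adjusted p = 0.00158). Acaca and Elovl5 fell with it, by 0.70 and 0.33 on the log2 scale.

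Dgat2, which completes triglyceride, was at 20.2 to 38 RPKM (median 31.1) in adult luminal cells, against 4.19 to 8.12 RPKM (median 5.25) in basal cells, with no overlap (log2 fold change 2.43 ± 0.20, adjusted p = 8.58e-10). Gpam was higher in luminal cells by a log2 fold change of 1.53 ± 0.15 (adjusted p = 1.27e-08). Acsl4 and Acsl3 were lower, by 1.34 and 1.08 on the log2 scale. Both Srebf genes were higher in luminal cells, Srebf2 by 0.95 ± 0.10 (adjusted p = 5e-08) and Srebf1 by 1.23 ± 0.17 (adjusted p = 2.2e-06), and neither range overlapped that of basal cells. In the sterol branch 9 of 11 genes were higher and 1, Cyp51, was lower. Dhcr7, the last reductase of cholesterol synthesis, was at 1.02 to 2.25 RPKM (median 1.36) in luminal cells, against 0.164 to 0.523 RPKM (median 0.309) in basal cells (log2 fold change 2.26 ± 0.19, adjusted p = 1.45e-09). Mvk differed by 1.59 ± 0.16 (adjusted p = 1.9e-08), Idi1 by 1.76 ± 0.22 (adjusted p = 4.25e-07) and Hmgcs1 by 0.67 ± 0.13 (adjusted p = 7.65e-05). Insig1 (0.37 ± 0.20, adjusted p = 0.0994) and Sqle (0.29 ± 0.17, adjusted p = 0.132) did not pass. Thrsp had 2 to 24 counts in adult luminal libraries and 0 to 7 in basal ones, so no fold change is given, and its call was lost when any of 5 libraries was left out.

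Of the 47 other pathway genes tested, 21 were higher and 15 lower in adult luminal than in basal cells. Hacd4 (3.84) and Hacd1 (-3.21), both dehydratases of chain elongation, led the fatty acid genes in opposite directions, as Lpin3 (2.18) and Agpat4 (-3.27) did among glycerolipid genes. Nr1h3, encoding the oxysterol receptor LXR alpha, was higher by 2.50, as was Mbtps2, a protease that releases the SREBP factors, by 0.75. Among sterol genes Tm7sf2 was higher by 2.55 and Lbr lower by 1.39, and both encode sterol C14 reductases. Against the mean of the other 3 populations, 13 members were higher and 21 lower in luminal cells, where 73.8% of all genes tested were called. In basal cells 6 were higher and 29 lower (74.3% of all genes called, 39.7% higher and 34.6% lower), and in fibroblasts 9 were higher and 22 lower (77.5% of all genes called, 39.9% higher and 37.7% lower).

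In puberty, with 2 libraries a population, adipocytes again had the higher levels. Of the 38 genes, 23 were higher and 2 lower in pubertal adipocytes than in the mean of the other populations, where 30% of all genes tested were called, 24.1% higher and 5.97% lower, and the members' median log2 fold change was 1.32, against 0.15 for all genes. Scd1 was at 1581 and 1808 RPKM in pubertal adipocytes, 64.2 and 48.0 in luminal cells, 17.8 and 10.3 in fibroblasts and 13.3 and 18.1 in basal cells (log2 fold change 6.22 ± 0.31, adjusted p = 1.03e-05). Fasn was at 255 and 321 RPKM in adipocytes, 10.5 and 6.34 in luminal cells, 14.0 and 11.6 in fibroblasts and 15.8 and 13 in basal cells (log2 fold change 4.66 ± 0.26, adjusted p = 1.48e-05). Scd1 and Fasn of pubertal adipocytes were thus far above the other populations. Scd2 was not, at 12.8 and 23.8 RPKM in adipocytes, 15.8 and 9.80 in luminal cells, 19.8 and 13.6 in fibroblasts and 56.2 and 37.9 in basal cells (log2 fold change -0.21 ± 0.33, adjusted p = 0.651). Sqle and Srebf2 were the members that fell in pubertal adipocytes, by 1.26 and 0.92 on the log2 scale.

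Pubertal luminal and basal cells differed in both directions, with 8 members higher and 9 lower in luminal cells, where 37.2% of all genes tested were called, and a median log2 fold change of 0.09. Dgat2 (1.97 ± 0.29, adjusted p = 0.00126) and Scd1 (1.84 ± 0.40, adjusted p = 0.00816) were higher in pubertal luminal cells. Scd2 (-1.88 ± 0.41, adjusted p = 0.00781), Insig1 (-1.64 ± 0.29, adjusted p = 0.0028) and Hmgcs1 (-1.34 ± 0.24, adjusted p = 0.00337) were lower. Scd2, Acsl3 and Acsl4 were the 3 members called higher in pubertal basal cells than in the mean of the other populations, against 15 called lower (17.2% of all genes called higher and 18.1% lower, 35.3% in all). Leaving out either pubertal basal library brought the calls between luminal and basal cells down to 7. Pubertal luminal cells had 7 members higher and 16 lower than the rest (48.1% of all genes), and pubertal fibroblasts 4 higher and 13 lower (42.3%).

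Over the adult estrous cycle, luminal cells were the population in which members were called in proestrus. Against the mean of the other 3 stages, Scd2, Elovl6 and Fdps were higher in proestrus, where 0.471% of all genes tested were called. Scd2 was at 22.6 and 25.5 RPKM in proestrus, 9.48 and 10.8 in estrus, 13 and 12.6 in metestrus and 11.6 and 15 in diestrus. Both proestrus libraries of Scd2 lay above the other 6, with a log2 fold change of 0.99 ± 0.12 (SE, adjusted p = 0.0134). Elovl6 was at 4.15 and 4.33 RPKM in proestrus, 2.42 and 2.57 in estrus, 2.32 and 2.33 in metestrus and 2.88 and 2.97 in diestrus (log2 fold change 0.71 ± 0.09, adjusted p = 0.0178). Fdps, which makes farnesyl diphosphate, was at 10.3 and 11.5 RPKM in proestrus, 5.86 and 6.22 in estrus, 5.43 and 7.38 in metestrus and 6.08 and 6.72 in diestrus (log2 fold change 0.79 ± 0.12, adjusted p = 0.0427). For Elovl6 and Fdps, too, the proestrus libraries did not overlap those of the other stages. These calls were lost without either proestrus library or the first metestrus library, those of Scd2 and Elovl6 also without the second metestrus library, and those of Elovl6 and Fdps also without either estrus library. A joint fit of the 32 adult libraries called none of them.

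Most other members had positive log2 fold changes in luminal proestrus but did not pass the test. A total of 32 of 38 were positive with a median of 0.39, against a median of 0.00 for all genes. An unadjusted p under 0.05 was reached by 17, while DESeq2 called 8. For counts by unadjusted p or by DESeq2, here and below, the share of all genes is not given. The sterol branch was positive in 11 of 11 genes with a median log2 fold change of 0.65, and the fatty acid branch in 12 of 14 with a median of 0.22. Hmgcs1 was at 18.7 and 17.1 RPKM in proestrus, 9.33 and 9.54 in estrus, 11.2 and 16.2 in metestrus and 8.25 and 14.0 in diestrus (log2 fold change 0.65 ± 0.20, adjusted p = 0.216). Insig1 was at 7.43 and 8.59 RPKM in proestrus, 2.06 and 3.66 in estrus, 3.91 and 6.67 in metestrus and 2.73 and 5.75 in diestrus (0.99 ± 0.31, adjusted p = 0.224). Idi1 was at 8.21 and 8.57 RPKM in proestrus, 3.19 and 4.58 in estrus, 4.33 and 8.61 in metestrus and 3.12 and 7.89 in diestrus (0.69 ± 0.34, adjusted p = 0.417). In Idi1 the higher metestrus library exceeded the proestrus libraries, and in Hmgcs1 and Insig1 the proestrus libraries were the highest. Sqle (0.47 ± 0.22, adjusted p = 0.388) and Fasn (0.49 ± 0.15, adjusted p = 0.219) did not pass. Beside these values, none of the 10 luminal markers was called in proestrus, but few genes of any kind were called in that comparison. Of the 43 other pathway genes tested, 1 was called, Pcx, the pyruvate carboxylase (1.52 ± 0.09, adjusted p = 0.0011), and 10 of 11 other sterol genes were positive with a median of 0.35.

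**Figure D3:**
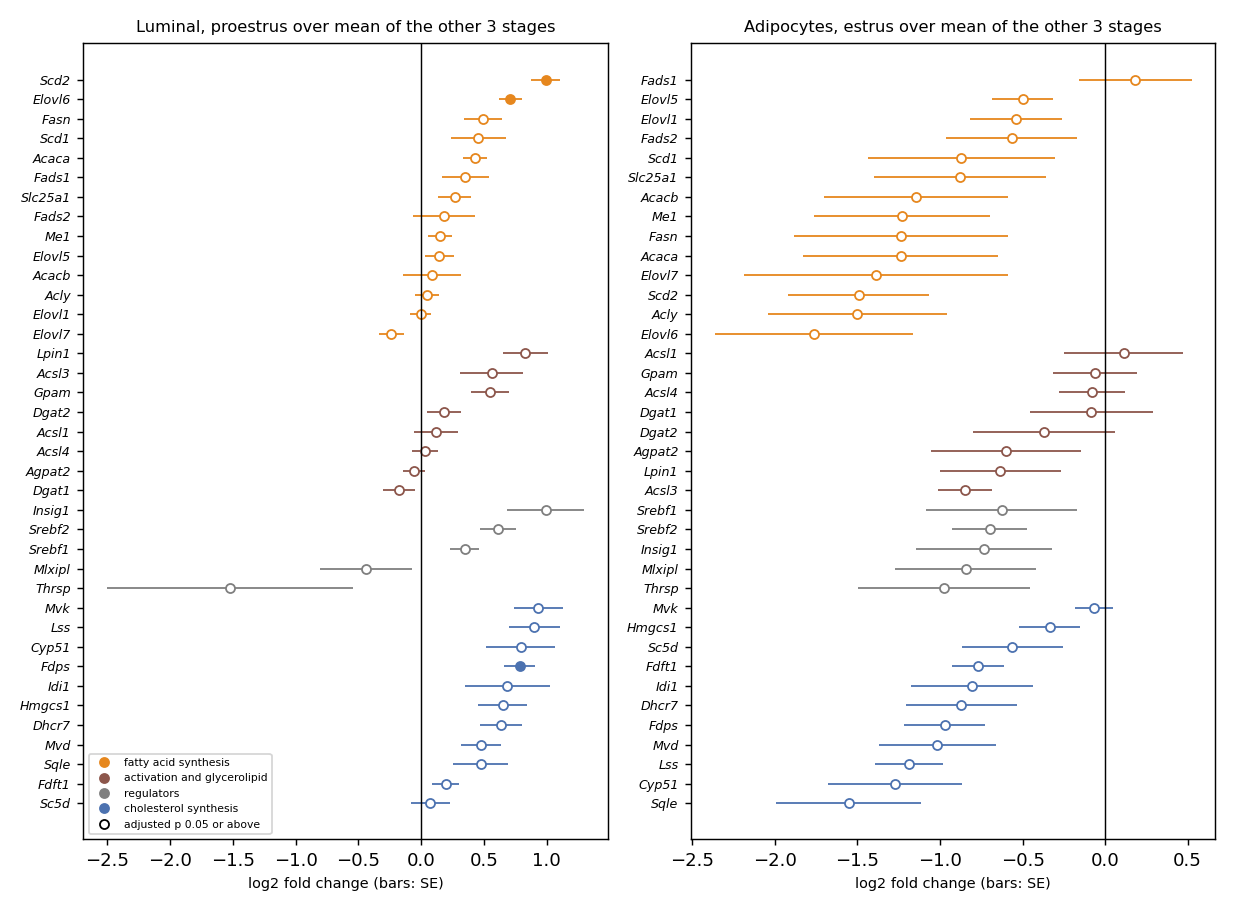
Each point is the log2 fold change of 1 gene on the horizontal axis, with its SE as a bar, for luminal proestrus (left) and adipocyte estrus (right) over the mean of the other 3 adult stages, with open points for an adjusted p of 0.05 or above. The filled points of Scd2, Elovl6 and Fdps lie right of 0 in luminal proestrus, and no point is filled in adipocyte estrus.

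In luminal estrus edgeR called no member (0% of all genes tested). The sterol branch was negative in 11 of 11 genes, with a median log2 fold change of -0.35. Of the 38 members 10 had an unadjusted p under 0.05, and DESeq2 called 2. Metestrus and diestrus against the other stages had no member called by edgeR or DESeq2, with 2 and 3 at an unadjusted p under 0.05 in edgeR (0% of all genes called in both). Between pairs of stages, Scd2 was lower in estrus than in proestrus (-1.25, adjusted p = 0.0488), where 0.0569% of all genes were called, and Elovl6 was lower in metestrus than in proestrus (-0.85, adjusted p = 0.038), where 0.195% were. Both calls were lost without any 1 of the proestrus, estrus or metestrus libraries and in the joint fit, and that of Scd2 also with RLE factors and with edgeR's newer quasi-likelihood method.

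In adipocytes the levels varied widely between libraries of a stage. Fasn was at 1755 and 1569.9 RPKM in proestrus, 242 and 687 in estrus, 1918 and 834 in metestrus and 1019.8 and 383 in diestrus. Scd1 was at 5266 and 7176 RPKM in proestrus, 3127 and 1435 in estrus, 5912 and 3407 in metestrus and 4191 and 1594 in diestrus. Thrsp was at 916 and 1062 RPKM in proestrus, 175 and 494 in estrus, 1029 and 576 in metestrus and 601 and 274 in diestrus. In all 3 genes both proestrus libraries were high, and the second library of diestrus lay far below the first. The median fold between the replicates of a stage over the 38 genes was 2.19 in diestrus, 1.54 in metestrus, 1.41 in estrus and 1.22 in proestrus, against 1.12 to 1.23 in luminal cells.

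In estrus, adipocytes had a positive log2 fold change against the other stages in only 2 of 38 members, with a median of -0.83, but none passed the test (0% of all genes called by edgeR). Scd2 was at 70.9 and 122 RPKM in proestrus, 17.3 and 19.2 in estrus, 76.7 and 37.6 in metestrus and 39.8 and 18.7 in diestrus. Elovl6 was at 98.3 and 97.0 RPKM in proestrus, 9.78 and 35.9 in estrus, 104 and 50.5 in metestrus and 51.8 and 101 in diestrus. Sqle was at 6.35 and 6.88 RPKM in proestrus, 1.79 and 2.56 in estrus, 5.99 and 3.96 in metestrus and 4.85 and 14.2 in diestrus. In Scd2 and Sqle the estrus libraries were low, but in Scd2 the second diestrus library lay between them, and in Elovl6 both estrus libraries were the lowest. Srebf1 was at 46.5 and 79.1 RPKM in proestrus, 22 and 36.1 in estrus, 57.3 and 31.3 in metestrus and 56.1 and 22.2 in diestrus. The fatty acid branch had a median of -1.19 with 1 of 14 positive, and the sterol branch a median of -0.87 with 0 of 11 positive. An unadjusted p under 0.05 was reached by 13 members, DESeq2 called 9, and the smallest adjusted p of edgeR was 0.218, for Fdft1, the squalene synthase. The summed level of the 14 fatty acid genes was 55657 and 61716 CPM in proestrus, 19845 and 18735 in estrus, 61338 and 31099 in metestrus and 39090.4 and 15807 in diestrus. The second diestrus library was thus the lowest, below both estrus libraries. The 11 sterol genes summed to 679 and 863 CPM in proestrus, 359.9 and 428 in estrus, 658 and 547 in metestrus and 485 and 779 in diestrus. The 10 adipocyte markers summed to 14142 and 24625 CPM in proestrus, 24466 and 17140.2 in estrus, 19123 and 16451 in metestrus and 22929 and 6204 in diestrus, so the estrus libraries lay within the range of the other stages. No marker list had a member called in estrus. As edgeR called no gene of any kind in that comparison, this says nothing about the markers. The 10 fibroblast markers were all positive with a median log2 fold change of 0.44, and the 5 brown fat markers all negative with a median of -0.49. Elovl3, named above among the other pathway genes, is also in the brown fat list. The brown fat markers summed to 2949 and 3066 CPM in proestrus, 732 and 2075 in estrus, 3391 and 2379 in metestrus and 765 and 1045 in diestrus, and the part of these markers in the result was not tested.

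**Figure D4:**
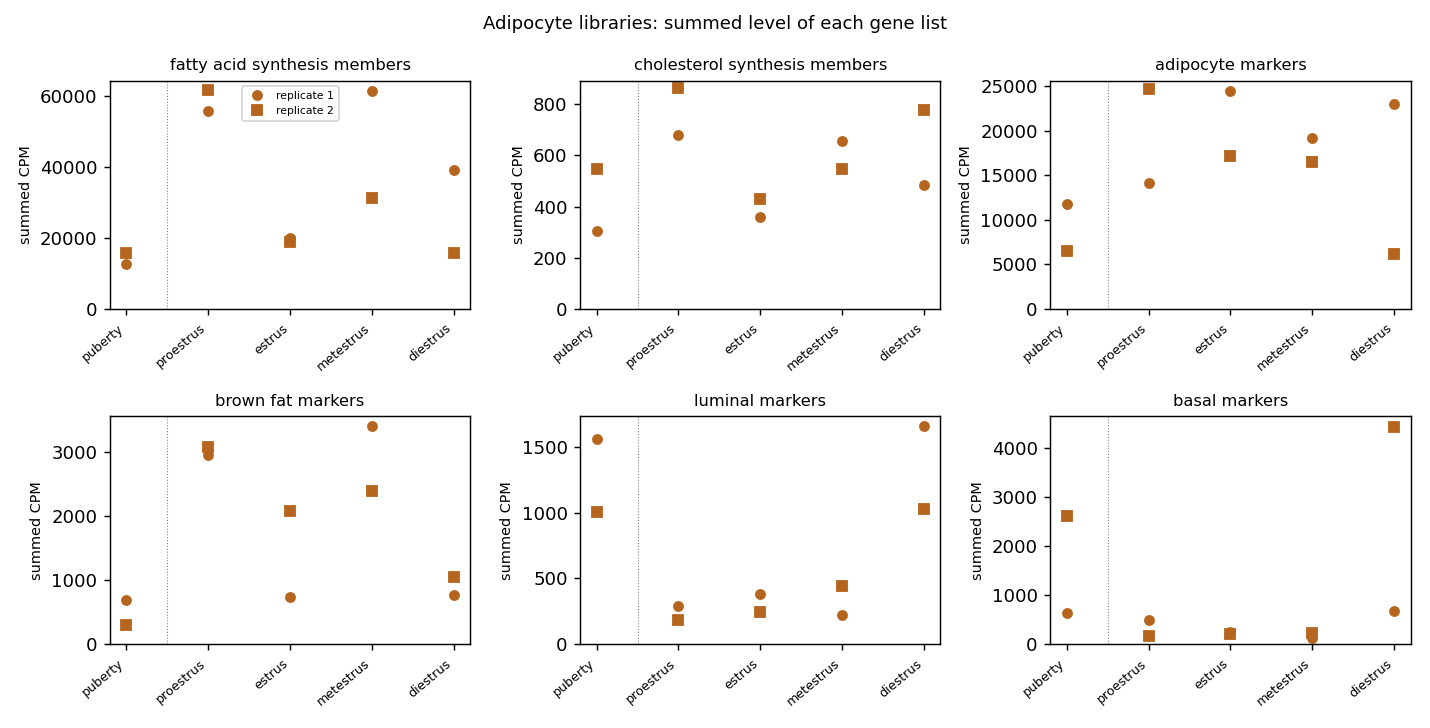
Summed CPM of 6 gene lists in each adipocyte library, by stage, with circles for replicate 1 and squares for replicate 2 and a vertical axis that starts at 0. Both proestrus libraries are high and both estrus libraries low in the fatty acid genes. The first metestrus library lies between the proestrus ones, and the second diestrus library is the lowest of the adult stages. Among the adult stages the luminal and basal markers are highest in diestrus.

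Proestrus adipocytes had positive log2 fold changes in 34 of 38 members with a median of 0.50, and edgeR called none, while 8 had an unadjusted p under 0.05 and DESeq2 called 1. Insig1 was at 141 and 201 RPKM in proestrus, 55.2 and 82.8 in estrus, 145 and 96.1 in metestrus and 127 and 49.3 in diestrus. Hmgcs1 was at 57.6 and 77.6 RPKM in proestrus, 37.0 and 46.2 in estrus, 56.3 and 54.5 in metestrus and 39.4 and 52.5 in diestrus. Both proestrus libraries of Hmgcs1 lay above the other stages, whereas those of Insig1 overlapped metestrus. In metestrus 30 of 38 members were positive with a median of 0.16, and 0 were called by edgeR or DESeq2, with 1 at an unadjusted p under 0.05. Over the 6 pairs of stages edgeR called no member (0.0801% of all genes between diestrus and estrus, 0% in the other pairs), 24 members had an unadjusted p under 0.05 in at least 1 pair, and DESeq2 called 15. These edgeR counts are of the fit of adipocytes on their own. The joint fit of the 32 adult libraries called adipocyte members both against the rest and in pairs, with counts given in the last section. The share of all genes in that fit is not given.

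In diestrus 3 members were called higher in adipocytes, a share close to that of all genes called higher, 7.53% (11% in either direction). All 3 were members that are lower in adult adipocytes than in the other populations. Elovl7 was at 1.12 and 0.348 RPKM in proestrus, 0.642 and 0.390 in estrus, 0.272 and 0.718 in metestrus and 2.90 and 13.3 in diestrus (log2 fold change 3.79 ± 0.64, adjusted p = 0.0285). Elovl1 was at 10.2 and 8.67 RPKM in proestrus, 7.45 and 6.69 in estrus, 6.68 and 6.90 in metestrus and 12.8 and 27.2 in diestrus (1.36 ± 0.25, adjusted p = 0.0327). Srebf2 was at 7.60 and 8.75 RPKM in proestrus, 4.27 and 5.95 in estrus, 7.29 and 5.65 in metestrus and 10.1 and 15.8 in diestrus (0.98 ± 0.21, adjusted p = 0.0413). The diestrus libraries lay above all others in each of these genes, and 3.52% of all genes were called lower. Markers of the epithelium were also higher in diestrus. The luminal sum was higher in the first diestrus library, whereas the 3 genes and the basal sum were higher in the second. The luminal markers summed to 1657 and 1028 CPM in diestrus adipocytes, against 187 to 441 CPM in the other adult adipocyte libraries, and 4 of 10 were called higher. The basal markers summed to 669 and 4419 CPM, against 138 to 488 CPM, with 4 of 10 called higher. The epidermal markers summed to 21.4 and 1809 CPM, against 19.5 to 239 CPM, with 1 of 6 called higher. The part of these markers in the calls was not tested. All 3 calls were lost when any of the 6 libraries of the other stages was left out, and those of Elovl7 and Srebf2 also without the second diestrus library. At an unadjusted p under 0.05 there were 7 members, and DESeq2 called 6.

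In basal cells and fibroblasts edgeR called none of the 37 members tested in any stage against the other stages, where 1.21% of all genes were called in basal estrus, 0.00825% in basal proestrus and 0% in the other stages of both populations. In basal cells 17 members had an unadjusted p under 0.05 in at least 1 stage, DESeq2 called 4, and the smallest adjusted p was 0.0862, for Srebf2 in estrus. In fibroblasts the counts were 15 by unadjusted p and 5 by DESeq2, and the smallest adjusted p was 0.0813, for Acsl4 in estrus. The joint fit of the 32 adult libraries called members in both populations, with counts given in the last section. The sterol genes of basal estrus were positive in 9 of 11 with a median log2 fold change of 0.33. In fibroblasts the sterol genes were positive in 1 of 11 in metestrus with a median of -0.21, and in 10 of 11 in diestrus with a median of 0.26.

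The mean of the 4 adult stages was compared with puberty within each population. In basal cells, of the 37 members tested, 13 were lower and 5 higher in the adult, where 49.3% of all genes tested were called, 24.8% lower and 24.5% higher, so the share of members called was close to that of all genes. Scd2 was at 1.52 to 6.93 RPKM (median 3.88) in adult basal cells, against 56.2 and 37.9 RPKM in pubertal ones, a log2 fold change of -3.81 ± 0.24 (SE, adjusted p = 3.76e-06). Scd1 was at 2.11 to 4.22 RPKM (median 3.64) in adult cells, against 13.3 and 18.1 RPKM in puberty (-2.17 ± 0.18, adjusted p = 1.25e-05). Elovl6 was at 0.488 to 0.887 RPKM (median 0.772) in adult cells, against 3.23 and 4.44 RPKM in puberty (-2.40 ± 0.20, adjusted p = 1.12e-05). The adult and pubertal ranges of these genes were apart. In pubertal adipocytes Scd2 stood at 12.8 and 23.8 RPKM. Fasn went the other way, at 16.0 to 26.8 RPKM (median 22.8) in adult basal cells, against 15.8 and 13 RPKM in puberty (0.60 ± 0.14, adjusted p = 0.00583), and its call was lost without the second pubertal basal library.

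In the sterol branch of adult basal cells 5 of 11 genes were lower and 1 was higher. Hmgcs1 was at 6.39 to 10.4 RPKM (median 8.38) in adult cells, against 26.3 and 27.2 RPKM in puberty (log2 fold change -1.76 ± 0.13, adjusted p = 5.69e-06). Idi1 was at 1.27 to 3.18 RPKM (median 1.66), against 6.40 and 7.64 RPKM (-2.04 ± 0.21, adjusted p = 4.24e-05), and Insig1 at 2.79 to 4.87 RPKM (median 3.58), against 8.25 and 8.68 RPKM (-1.22 ± 0.14, adjusted p = 9.42e-05). In each of these genes both pubertal libraries were above all adult ones. Mvk (-1.53), Dhcr7 (-1.39) and Lss (-0.71) were the other sterol genes called lower, and Sc5d, the lathosterol desaturase, was higher (0.36). Of the 11 further sterol genes listed, 6 were lower and none was higher. Gpam, Elovl5, Fads2 and Acsl1 were lower by 0.98, 0.77, 0.61 and 0.48 on the log2 scale, and Agpat2, Slc25a1 and Dgat1 were higher by 1.25, 0.63 and 0.49. All adult libraries lay below both pubertal ones in 11 members (21.6% of all genes) and above them in 5 (23.8%).

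Markers of other tissues also differed between adult and pubertal basal cells. The 6 epidermal markers summed to 3.96 to 7.14 CPM in adult basal libraries, against 113 and 194 CPM in puberty, and 5 of 5 tested were lower. The adipocyte markers summed to 108 to 148 CPM in adult libraries, against 46.0 and 47.5 CPM in puberty, and 3 of 5 tested were higher. The luminal markers summed to 2432 to 3125 CPM in adult libraries, against 1316 and 1742 CPM in puberty. The part of these markers in the changes of the lipid genes was not tested.

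The promoters of 4 genes that fell in adult basal cells and of Fasn, which rose, are printed to show the letters at their starts. A promoter here is the RefSeq sequence of GRCm38.p6 from 250 bases before to 50 bases after the annotated start, 5' to 3' on the strand of the gene. Capitals mark CCAAT on either strand, the motif bound by NF-Y, and TCACNCCAC on either strand, a form of the sterol regulatory element. The positions are chr13:119690101-119690400, plus strand for Hmgcs1, chr13:8885356-8885655, plus strand for Idi1, chr5:114444019-114444318, plus strand for Mvk, chr5:28071162-28071461, plus strand for Insig1 and chr11:120824498-120824797, minus strand for Fasn.
Hmgcs1: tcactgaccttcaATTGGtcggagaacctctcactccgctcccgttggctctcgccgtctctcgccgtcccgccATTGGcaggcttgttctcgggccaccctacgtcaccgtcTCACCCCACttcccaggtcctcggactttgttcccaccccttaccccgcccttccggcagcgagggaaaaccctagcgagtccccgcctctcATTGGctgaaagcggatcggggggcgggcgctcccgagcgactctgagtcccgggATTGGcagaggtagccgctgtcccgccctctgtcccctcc
Idi1: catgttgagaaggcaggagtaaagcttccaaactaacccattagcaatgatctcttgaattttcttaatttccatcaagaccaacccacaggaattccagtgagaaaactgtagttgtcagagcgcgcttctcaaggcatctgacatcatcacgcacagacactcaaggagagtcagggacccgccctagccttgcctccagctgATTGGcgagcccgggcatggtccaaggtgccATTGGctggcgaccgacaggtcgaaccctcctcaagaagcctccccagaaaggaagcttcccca
Mvk: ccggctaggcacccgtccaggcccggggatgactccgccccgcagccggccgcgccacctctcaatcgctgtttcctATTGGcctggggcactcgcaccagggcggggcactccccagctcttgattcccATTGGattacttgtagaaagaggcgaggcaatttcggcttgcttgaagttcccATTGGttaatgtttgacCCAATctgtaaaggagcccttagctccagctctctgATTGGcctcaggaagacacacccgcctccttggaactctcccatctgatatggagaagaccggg
Insig1: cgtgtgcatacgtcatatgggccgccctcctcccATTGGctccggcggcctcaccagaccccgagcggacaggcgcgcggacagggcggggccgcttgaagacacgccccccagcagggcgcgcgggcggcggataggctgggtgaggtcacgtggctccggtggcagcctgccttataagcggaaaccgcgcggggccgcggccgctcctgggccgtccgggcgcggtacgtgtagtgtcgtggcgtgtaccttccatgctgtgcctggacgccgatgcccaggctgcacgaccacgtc
Fasn: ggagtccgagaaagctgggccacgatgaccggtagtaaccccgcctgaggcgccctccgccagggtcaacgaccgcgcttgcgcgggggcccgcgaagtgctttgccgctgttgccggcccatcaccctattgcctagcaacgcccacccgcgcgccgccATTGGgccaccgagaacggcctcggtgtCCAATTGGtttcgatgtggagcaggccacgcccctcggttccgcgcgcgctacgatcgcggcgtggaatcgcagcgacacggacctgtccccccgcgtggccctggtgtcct
The sterol element of Hmgcs1 begins 137 bases before the start. Of the 38 genes 30 matched the promoter table, and 23 of these (76.7%) held CCAAT in at least 1 promoter, against 41.1% of all 27025 genes in the table. It was in 8 of 8 matched sterol genes and 5 of 5 regulators, but 7 of 11 matched fatty acid genes. In the branch of activation and triglyceride assembly it was in 3 of 6 matched genes. Scd1, Scd2, Sqle and Fdps were among the genes with no promoter in the table. TCACNCCAC was in 3 of 30 (10.0%), Hmgcs1, Acsl1 and Mlxipl, against 1.44% of all genes, and CACGTG, the palindromic E-box, in 6 of 30 (20%), against 8.09%. A match of letters does not show a bound site, and CCAAT was present in Fasn as well as in the 4 other promoters printed. It was not found in Elovl6 and Fads2, which also fell. In Fasn a CCAAT of each strand overlap.

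**Figure D5:**
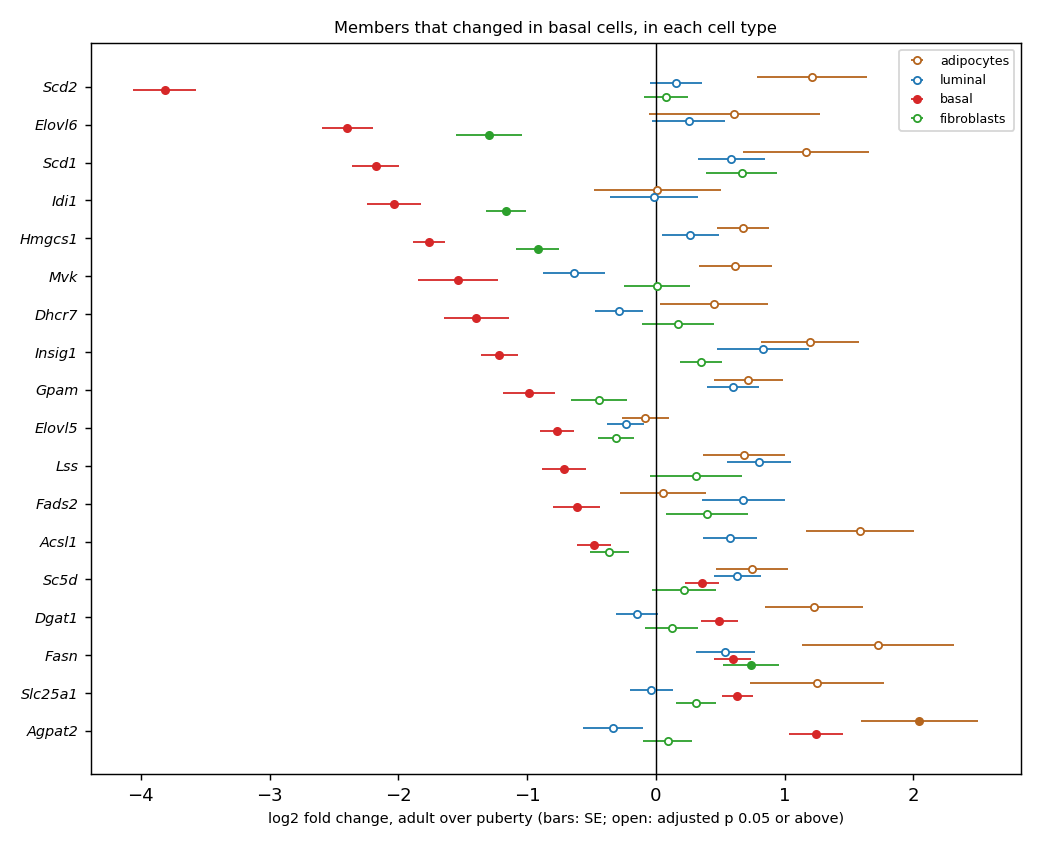
Log2 fold change of adult over pubertal libraries, with its SE as a bar, in each population for the 18 genes called in basal cells, with open points for an adjusted p of 0.05 or above. The 13 genes that fell and the 5 that rose in basal cells were chosen by those basal values.

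In adult adipocytes 3 members were higher than in puberty and 1 was lower, where 12.3% of all genes tested were called. Agpat2, the acyltransferase lost in a human lipodystrophy, was at 106 to 469.6 RPKM (median 278) in adult adipocytes, against 75.6 and 60.0 RPKM in puberty (log2 fold change 2.05 ± 0.46, adjusted p = 0.0355). Dgat2 was at 92.1 to 371 RPKM (median 245), against 62.6 and 87.8 RPKM (1.69 ± 0.43, adjusted p = 0.0465), and Fads1, the delta-5 desaturase, at 10.9 to 27.3 RPKM (median 23.5), against 8.90 and 8.92 RPKM (1.32 ± 0.33, adjusted p = 0.045). The adult libraries of these 3 genes all lay above the pubertal ones. Elovl7 was at 0.272 to 13.3 RPKM (median 0.680), against 2.94 and 12.9 RPKM, with overlap (-2.79 ± 0.67, adjusted p = 0.0411). Over the members 32 of 38 were positive with a median of 0.77, against -0.06 for all genes. An unadjusted p under 0.05 was reached by 23 and DESeq2 called 23, and neither count has a share of all genes beside it. All adult libraries lay above both pubertal ones in 8 members (6.59% of all genes). The adipocyte markers were positive in 10 of 10 with a median of 1.16 and none called, and 2 of 10 luminal and 3 of 10 basal markers were lower in adult adipocytes. The luminal markers summed to 187 to 1657 CPM in adult adipocytes, against 1556 and 1003 CPM in puberty, and the basal markers to 138 to 4419 CPM, against 641 and 2612 CPM, with overlap in both lists. The fibroblast markers summed to 3603 to 7196 CPM in adult adipocytes, against 9487 and 18799 CPM in puberty, and 3 of 10 were lower. The brown fat markers summed to 732 to 3391 CPM in adult adipocytes, against 682 and 305 CPM in puberty, and 2 of 5 were higher. The adult and pubertal ranges of the fibroblast and brown fat lists did not overlap. The part of these markers in the calls was not tested. Each of the 4 calls was lost in 7 or 8 of the 10 leave-one-out fits.

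In adult luminal cells 4 members were higher than in puberty and none was lower (10.8% of all genes tested called). Dgat2 was at 20.2 to 38 RPKM (median 31.1) in adult luminal cells, against 18.6 and 14.9 RPKM in puberty (log2 fold change 0.85 ± 0.18, adjusted p = 0.0175). Fads1 was at 6.75 to 12.0 RPKM (median 9.33), against 5.23 and 4.22 RPKM (0.93 ± 0.23, adjusted p = 0.0311). Srebf2 (0.76 ± 0.20, adjusted p = 0.0433) and Srebf1 (0.65 ± 0.18, adjusted p = 0.0474) were at 25.3 to 49.6 and 26.1 to 37.3 RPKM in adult cells, against 22.9 and 16.8 RPKM and 22.6 and 16.4 RPKM in puberty. The adult libraries of all 4 genes were above the pubertal ones. The count of calls was 0 without the second pubertal luminal library and 18 without the first. At an unadjusted p under 0.05 there were 17 members, and DESeq2 called 7. The fibroblast markers summed to 108 to 533 CPM in adult luminal cells, against 36.2 and 24.9 CPM in puberty, with 1 higher and 2 lower of 5 tested. The epidermal markers summed to 60.2 to 111 CPM in adult luminal cells, against 186 and 269 CPM in puberty, with 4 of 5 tested lower. Neither range overlapped, and the part of these markers in the calls was not tested.

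In adult fibroblasts 3 members were higher and 5 lower than in puberty, of 37 tested (18.9% of all genes tested called). Idi1 was at 5.16 to 10.4 RPKM (median 7.15) in adult fibroblasts, against 13.9 and 16.9 RPKM in puberty (log2 fold change -1.16 ± 0.16, adjusted p = 0.00379). Hmgcs1 was at 10.6 to 16.6 RPKM (median 15.2), against 25.7 and 23.6 RPKM (-0.92 ± 0.17, adjusted p = 0.00883). Elovl6 was at 0.996 to 6.26 RPKM (median 2.55), against 5.46 and 6.61 RPKM, with overlap (-1.30 ± 0.26, adjusted p = 0.0111). Acsl4 (-1.12) and Acsl3 (-0.81) were the other genes that fell, at 9.60 to 41.2 RPKM in adult fibroblasts, against 47.8 and 54.6 RPKM in puberty for Acsl4, and 7.35 to 16.8 RPKM, against 24 and 16.5 RPKM for Acsl3. Srebf2 was higher, at 22.7 to 29.3 RPKM (median 25.9) in adult fibroblasts, against 15.1 and 14.0 RPKM (0.73 ± 0.14, adjusted p = 0.0103), as were Dgat2 (0.999) and Fasn (0.74). All 8 calls were lost without the second pubertal library. The fibroblast markers summed to 20254 to 54107 CPM in adult fibroblasts, against 113088 and 81177 CPM in puberty, with 1 higher and 4 lower of 10. The adipocyte markers summed to 141 to 294 CPM in adult fibroblasts, against 126 and 128 CPM in puberty, with 1 of 6 tested higher. Neither range overlapped, and the part of these markers in the calls was not tested. Idi1, Hmgcs1 and Elovl6 were thus called lower in adult basal cells as well as in adult fibroblasts.

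Whether the change with age differed between populations was tested as an interaction over the 40 libraries. In adipocytes against the mean of the other populations, 12 members had a higher and 3 a lower change, where 22.1% of all genes tested were called. Hmgcs1 (1.41 ± 0.23, adjusted p = 0.000226), Scd2 (2.34 ± 0.40, adjusted p = 0.000331), Acsl1 (1.61 ± 0.30, adjusted p = 0.000653) and Agpat2 (1.65 ± 0.35, adjusted p = 0.00208) had the higher changes, and Elovl7 (-2.59 ± 0.52, adjusted p = 0.00114) and Elovl1 (-1.11 ± 0.23, adjusted p = 0.00146) the lower ones. Elovl7 and Elovl1 were not called without the second pubertal adipocyte library. In basal cells against the other populations, a contrast added after the values were seen, 14 members had a lower change and none a higher one, where 8.08% of all genes tested were called lower. Scd2 (-4.31 ± 0.35, adjusted p = 2.06e-08), Hmgcs1 (-1.77 ± 0.21, adjusted p = 6.21e-06), Scd1 (-2.99 ± 0.37, adjusted p = 1.02e-05) and Insig1 (-2.02 ± 0.33, adjusted p = 0.000252) had the smallest adjusted p. Both contrasts use the same libraries, so the basal decrease of Hmgcs1 and Scd2 enters the adipocyte value of each.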

How the data were processed

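Polyadenylated RNA was sequenced from 40 libraries of 4 cell populations. Per the labels and the study's methods, the authors aligned reads to GRCm38 (mm10) with TopHat2 2.1 and Bowtie 1.1.0 and counted reads per gene with HTSeq, whose version and strand setting are not given in the sources used here. The deposited values used are raw counts, in 1 table for the 32 adult and 1 for the 8 pubertal libraries. The authors' normalized log2 tables were not used. Symbols came from GENCODE M21 for 24739 of 25044 adult and 23989 of 24268 pubertal IDs. Groups came from the labels, and no library was left out.

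Counts were tested with edgeR 4.0.16 in R 4.3.3 (quasi-likelihood F-test, legacy form, TMM), on genes above 1 CPM in 2 or more of the fitted libraries, with p adjusted over all genes by Benjamini-Hochberg at 0.05. Cell types were fitted over 32 adult or 8 pubertal libraries, stages over the 8 adult libraries of a population, and age over its 10 libraries. CPM and RPKM use TMM factors shared by all 40 libraries, and RPKM uses the summed exon length. Total counts of 8991222 to 22760563 per library set the counting precision. The adult replicates are different pools of mice, some formed as early and late in the stage. The p values measure the spread between pools, which can include time within the stage, and hold no spread between runs. The scripts were tested on simulated data.

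The members and gene lists were chosen with earlier results of these data known. All 38 members could be named. Values by library are given for the 2 members of each branch with the smallest adjusted p in the adult cell type comparisons, for up to 6 called members in a stage or age comparison, and for Fasn, Scd1, Scd2, Elovl6, Thrsp, Srebf1, Insig1, Hmgcs1, Idi1 and Sqle. Of the other pathway lists, the genes with the smallest adjusted p are named, except for some that are not reported here. The basal interaction was added after the data were seen. The cell types of an adult pool come from the same mice, by the study's methods, and the deviations of the cell types of a pool correlated between -0.0525 and 0.354 over 24 pairs. As alternatives, each library was left out in turn, the replicate number or pool entered as a block, all adult libraries were fitted jointly, the low-count filter was dropped, and RLE factors, the quasi-likelihood method of newer edgeR releases and DESeq2 1.42.0 were used.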

Additional observations from a re-analysis of the deposited data

Results flagged for a closer look

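The change from puberty to adulthood differed between the cell populations by a test of the interaction (edgeR's quasi-likelihood test with Benjamini-Hochberg adjustment). For adipocytes against the mean of the other populations, 15 members were called, where 22.1% of all genes tested were called. For basal cells against the mean of the others, 14 members were called, all lower, where 8.08% of all genes tested were called lower. The basal contrast was added after the values were seen. For adipocytes the log2 difference of changes was 1.41 for Hmgcs1 (adjusted p = 0.000226), 2.34 for Scd2 (adjusted p = 0.000331), 1.61 for Acsl1 (adjusted p = 0.000653), 1.65 for Agpat2 (adjusted p = 0.00208), -2.59 for Elovl7 (adjusted p = 0.00114) and -1.11 for Elovl1 (adjusted p = 0.00146). The Elovl7 and Elovl1 calls were lost without the second pubertal adipocyte library. For basal cells it was -4.31 for Scd2 (adjusted p = 2.06e-08), -1.77 for Hmgcs1 (adjusted p = 6.21e-06), -2.99 for Scd1 (adjusted p = 1.02e-05), -2.02 for Insig1 (adjusted p = 0.000252), -1.28 for Gpam (adjusted p = 0.00213) and -1.53 for Mvk (adjusted p = 0.00253). The Mvk call was lost without the second pubertal basal library. The values share libraries between both contrasts, and age, sequencing run and pool size cannot be told apart.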

How the results depend on the processing

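No called member that was followed changed direction under any alternative run. Those followed were the called members with values by library in the 2 adult cell type comparisons and the stage and age comparisons, and the same choice in the interactions. Members that were not called, lower-ranked calls and the pubertal cell type comparisons were not followed for direction. For named members that were called, leaving out 1 library at a time kept the call in 1725 values and lost it in 135. The other settings kept 415 and lost 17, all of them stage or age calls. Most leave-one-out values came from the adult cell type and interaction fits, with 32 and 40 libraries left out in turn. The stage fits had 8 libraries and the age fits 10, so their calls weigh less in these counts. By the losses given above, stage calls and adipocyte age calls were lost more often than the pooled counts show. Under leave-one-out the members called ranged from 38 to 38 for adult adipocytes, 33 to 35 for luminal cells, 34 to 36 for basal cells, 28 to 32 for fibroblasts and 31 to 35 for luminal against basal cells. In puberty the ranges were 21 to 27, 16 to 25, 6 to 23, 8 to 22 and 7 to 20 in the same order, with the lowest basal and fibroblast counts without the first pubertal library of that population. For the stages against the rest they were 0 to 10 in adipocytes, 0 to 9 in luminal cells, 0 to 0 in basal cells and 0 to 1 in fibroblasts, and for pairs of stages 0 to 16, 0 to 5, 0 to 2 and 0 to 3. For age they were 0 to 12 in adipocytes, 0 to 18 in luminal cells, 13 to 19 in basal cells and 0 to 10 in fibroblasts. The adipocyte interaction ranged from 9 without the first pubertal adipocyte library to 23 without the first diestrus basal library, and the basal interaction from 9, without either pubertal basal library, to 17. Other settings moved these counts by more than 1.5 times. DESeq2 called 24 members for the adipocyte interaction (15 by edgeR) and 23 for age in adipocytes (4) and 7 in luminal cells (4). It called 13 for adipocyte stages against the rest (3), 8 in luminal cells (3), 4 in basal cells (0) and 5 in fibroblasts (0), and for pairs of stages 15, 8, 5 and 4 (0, 2, 0 and 0). The joint fit of the adult libraries called 15, 0, 1 and 2 against the rest and 21, 0, 2 and 4 in pairs. Without the filter on low counts, luminal age had 11 calls, luminal stages 19 against the rest and 17 in pairs, basal stages 7 and 7, and fibroblast stages 9 and 9. For luminal pairs edgeR's newer method and RLE factors called 1 each. The adipocyte interaction had 25 calls without both diestrus adipocyte libraries, and adipocyte age had 17. RLE factors shifted the members by a median log2 of 0.11 in the adipocyte interaction. The cause of these moves was not tested. The share of all genes called is not given for leave-one-out or any other setting in this section. These counts therefore do not show whether the members were called more often than all genes. With the pool of mice as a block the adult cell type comparisons called 38, 34, 34, 30 and 30 members. Replicate numbers of a stage did not pair the libraries, with correlations between -0.558 and 0.330 in the 4 populations, and a replicate block called 0 members for adipocyte stages against the rest, for luminal pairs and for age in adipocytes, and Srebf2 was not called for age in luminal cells (adjusted p = 0.0566).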
